A study of Mus musculus with 9 samples.

Results

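The Onecut (OC) family of transcription factors has 3 members in the mouse, *Onecut1* (HNF-6 or OC-1), *Onecut2* (OC-2) and *Onecut3* (OC-3), and all 3 were read on arrays of e11.5 spinal cords from control and *Hnf6*-/-;*Oc2*-/- embryos, called OC mutants here. The members were chosen by name. A feature, the set of probes that gives 1 value per array, was taken as a member when the annotation of the platform gave it a single symbol and that symbol was a Onecut gene. Each Onecut gene had 1 such feature, so that 3 of 41345 features, or 3 of the 22180 genes tested, are described. Total RNA of spinal cords dissected at e11.5 was hybridized to Affymetrix MoGene 2.0 ST arrays, which carry probes along the exons of each gene. There were 5 control and 4 OC mutant arrays, and a further mutant embryo counted in the series description is not analysed here. All embryos had the same labelled stage and tissue, and no agent is named for either group. The mutant genotype was a loss of both *Hnf6* and *Oc2* in the germ line, so that every cell of the embryo carried it. The labels name the other group only as control, and the sources used here do not give its alleles at these genes.

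Onecut proteins bind DNA through a single CUT domain and a divergent homeodomain and act mainly as transcriptional activators. They are known from the developing liver and pancreas, where HNF-6 acts upstream of genes of the hepatic, biliary and endocrine programmes. In the central nervous system they are present in newly born neurons, motor neurons and several interneuron populations of the spinal cord among them, and act on the diversification, position and maintenance of these cells. Because whole spinal cords were read, a lower value can come from fewer cells that express a gene or from less RNA per cell, and these cannot be told apart.

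*Onecut2* and *Onecut3* had all 4 OC mutant values below all 5 control values, with means at 0.557-fold and 0.572-fold of the control level. For *Onecut1* the log2 fold change was −0.11 and the groups overlapped. At the limma adjusted p over all 22180 genes, 0 of the 3 members passed, while 0 genes were called higher and 5 (0.0225%) lower. Before adjustment, at a limma p under 0.05, 2 of the 3 members were lower, against 1094 or 4.93% of all genes, and 0 of 3 were higher, against 1067 or 4.81%. Every mutant value lay below every control value for 2 of the 3 members and for 1.79% of all genes.

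*Onecut1*, which encodes HNF-6 and is one of the mutated genes, had log2 values of 7.24, 7.78, 7.05, 7.37 and 7.18 on control arrays 1 to 5 (feature 17519357). On OC mutant arrays 1 to 4 it had 7.27, 7.13, 7.29 and 7.17. Control 2 stood above all other arrays and control 3 below them, and the 4 mutant values lay between these extremes. The group means were 7.33 ± 0.28 (SD, n = 5) and 7.21 ± 0.08 (SD, n = 4). The log2 fold change of −0.11 (SE 0.13) had a 95% confidence interval from −0.41 to 0.18, or from 0.754-fold to 1.13-fold (limma unadjusted p = 0.410, adjusted p = 0.826; exact two-sided permutation test, p = 0.571). Without control 2 the log2 fold change of *Onecut1* was −0.00 (limma adjusted p = 0.999). The sources used here do not say whether the probes of this feature lie in the removed part of the gene. Its level therefore checks neither the genotype nor the loss of HNF-6 protein.

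Only the promoter of *Onecut1* is shown, and no such sequence was used for *Onecut2* or *Onecut3*. *Gm16551*, the nearest measured gene before *Onecut1* by start coordinate, had groups that were apart. The values of *Gm16551* are given with those of the other neighbours. RefSeq's sequence of 250 bases before to 50 after the start of *Onecut1*, chr9:74861671-74861970 on the plus strand of GRCm38.p6, holds 38 CpG dinucleotides and has a GC content of 73.0%.
Onecut1 promoter: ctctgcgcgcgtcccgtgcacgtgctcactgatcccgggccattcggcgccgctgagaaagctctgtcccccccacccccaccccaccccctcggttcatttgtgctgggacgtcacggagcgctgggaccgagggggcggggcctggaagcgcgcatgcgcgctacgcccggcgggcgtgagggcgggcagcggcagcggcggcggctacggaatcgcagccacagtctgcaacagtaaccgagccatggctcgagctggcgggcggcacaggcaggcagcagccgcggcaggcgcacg
It was searched on both strands for core motifs of Onecut binding, namely for ATTGAT, for ATTGAC and for ATCGAT, which would have been set in capitals, and none was in this window. Over the 32817 promoters of the same length, 7.54% held ATTGAT, 6.27% held ATTGAC, 0.926% held ATCGAT and 13.9% held any of them, while 4.96% had as many CpG dinucleotides. These letters are a description of the window, and nothing on binding follows from them.

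*Onecut2*, the other mutated gene, had log2 values of 7.68, 8.01, 7.66, 7.89 and 7.52 on control arrays 1 to 5 (feature 17351273). On OC mutant arrays 1 to 4 the values were 6.57, 6.67, 7.21 and 7.18. All mutant values were lower than all control values, with a gap of 0.31 between the lowest control and the highest mutant, and mutants 1 and 2 lay clearly below mutants 3 and 4. The means were 7.75 ± 0.20 (SD, n = 5) and 6.90 ± 0.34 (SD, n = 4). The log2 fold change was −0.84 (SE 0.16, 95% confidence interval −1.19 to −0.50), which corresponds to a level 44.3% lower (limma unadjusted p = 1.83e-04, adjusted p = 0.127; exact two-sided permutation test, p = 0.00794, the smallest that 9 arrays can give). Only 44 of the 22180 genes, *Onecut2* included, had a log2 fold change of this size or larger in either direction. *Onecut2* was also among the more variable genes: its residual SD of 0.265 was at or above that of 81.7% of all genes, whose median was 0.176. As for *Onecut1*, it is not known whether the probes lie in the removed part of the gene, so probe targets missing from the mutant RNA and a lower level of *Onecut2* RNA cannot be told apart in this value.

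*Onecut3*, which the labels do not name as mutated, had log2 values of 7.35, 7.07, 6.94, 7.27 and 6.85 on control arrays 1 to 5 (feature 17235360). On OC mutant arrays 1 to 4 the values were 6.17, 6.42, 6.21 and 6.36. The mutant values lay close together, all under the lowest control value, and the gap between the groups was 0.42. The control mean was 7.10 ± 0.21 (SD, n = 5) and the OC mutant mean 6.29 ± 0.12 (SD, n = 4). The log2 fold change of −0.81 (SE 0.12, 95% confidence interval −1.06 to −0.55) corresponds to a level 42.8% lower (limma unadjusted p = 2.25e-05, adjusted p = 0.0624; exact two-sided permutation test, p = 0.00794). Ranked by limma p over all genes, *Onecut3* stood at place 8, *Onecut2* at 32 and *Onecut1* at 11006. Its residual SD of 0.179 was near the median of all genes, and 56 genes, itself included, had a log2 fold change at least as large in either direction. The study states, citing earlier work, that these double mutants lose *Oc3* expression completely in the developing spinal cord. As for all features, the fold is that of the deposited signal, and the signal left on the mutant arrays is not shown to be RNA of *Onecut3*.

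**Figure D1:**
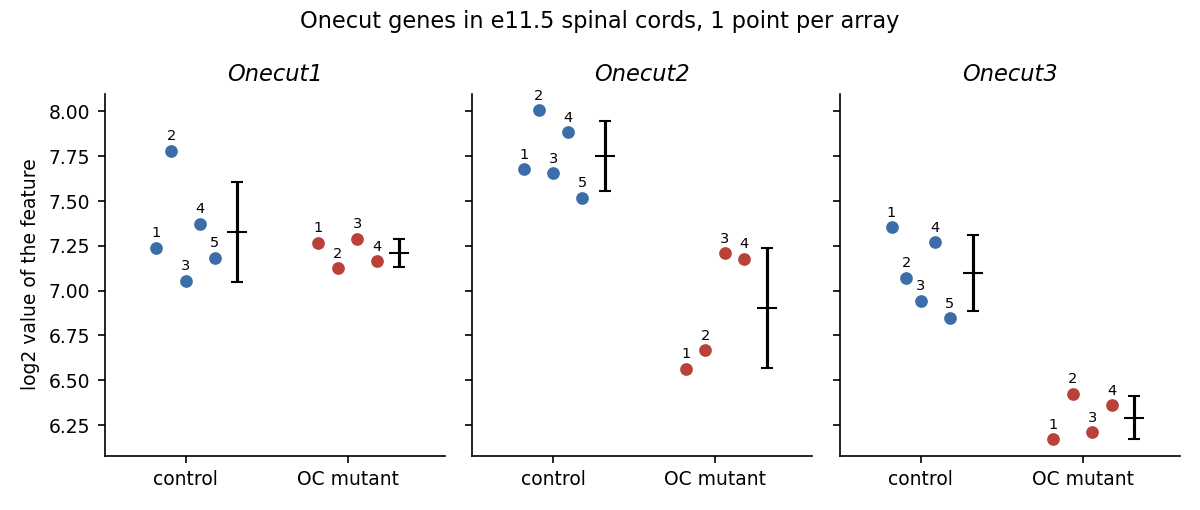
Log2 value of the Onecut1, Onecut2 and Onecut3 features on each array of e11.5 spinal cord (y axis), by group (x axis). Points are arrays numbered by replicate, and bars give the mean and SD of 5 control and 4 OC mutant arrays. The groups overlap for Onecut1 and are apart for Onecut2 (gap 0.31) and Onecut3 (gap 0.42), and Onecut2 in mutants 1 and 2 lies below mutants 3 and 4.

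The plot of the members by array shows that the arrays did not keep the same order in the 3 genes. Control 2 was the highest control for *Onecut1* and *Onecut2* but not for *Onecut3*, for which control 1 was highest. Control 5 was the lowest control for *Onecut2* and *Onecut3*. After removal of the group means, the values of *Onecut2* and *Onecut1* had Pearson's r = 0.499 over the 9 arrays (exact permutation within groups, p = 0.0688, adjusted p = 0.413 over 6 relations; Spearman's rho = 0.433, exact p = 0.135, adjusted p = 0.425), and r = 0.629 without mutants 3 and 4. Those of *Onecut3* and *Onecut2* had r = 0.222 (exact permutation p = 0.520, adjusted p = 0.780; rho = 0.25, exact p = 0.412, adjusted p = 0.494), and r = 0.173 without controls 1 and 5. For *Onecut3* and *Onecut1*, r was 0.0862 (exact permutation p = 0.913, adjusted p = 0.913; rho = 0.167, exact p = 0.755, adjusted p = 0.755), and 0.0621 without controls 1 and 5. None of these relations within groups passed the adjustment. For the values of r without 2 arrays, the group means of all 9 arrays were kept, so that an offset between groups can remain in them.

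Whether the members differed from each other in their change was tested on differences taken within each array, which cancel the scaling of the array. For features with different probes only the change of this difference between groups can be read, not its sign. The 3 possible pairs were compared, with p-values adjusted over them. *Onecut2* minus *Onecut1* was 0.42 ± 0.15 (SD, n = 5) on the control arrays, from 0.23 to 0.60, and −0.31 ± 0.33 (SD, n = 4) on the mutant ones, from −0.70 to 0.01. The change of −0.73 (SE 0.16, 95% confidence interval −1.12 to −0.34) separated the groups with no overlap (exact two-sided permutation test, p = 0.00794, adjusted p = 0.0238). The signal of the *Onecut2* feature was thus lower by more than that of the *Onecut1* feature. Because it is not known where their probes lie in the mutated genes, this was not a test of RNA levels of the genes.

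*Onecut3* minus *Onecut1* was −0.23 ± 0.31 (SD, n = 5) on the control arrays and −0.92 ± 0.20 (SD, n = 4) on the mutant ones. The change was −0.69 (SE 0.18, 95% confidence interval −1.12 to −0.26; exact two-sided permutation test, p = 0.0238, adjusted p = 0.0357). Control 2, with the high *Onecut1* value, read −0.71 and reached into the mutant range of −1.10 to −0.70. This call was lost on leaving out any 1 of 7 of the 9 arrays, with exact p from 0.0536 to 0.0571, and held without control 2 or mutant 2. *Onecut3* minus *Onecut2* was −0.65 ± 0.22 (SD, n = 5) and −0.61 ± 0.35 (SD, n = 4), a change of 0.04 (SE 0.19, exact two-sided permutation test, p = 0.841, adjusted p = 0.841). No difference between the changes of *Onecut2* and *Onecut3* was detected, and the 95% confidence interval of −0.41 to 0.49 leaves room for one of up to 0.49 on the log2 scale.

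**Figure D2:**
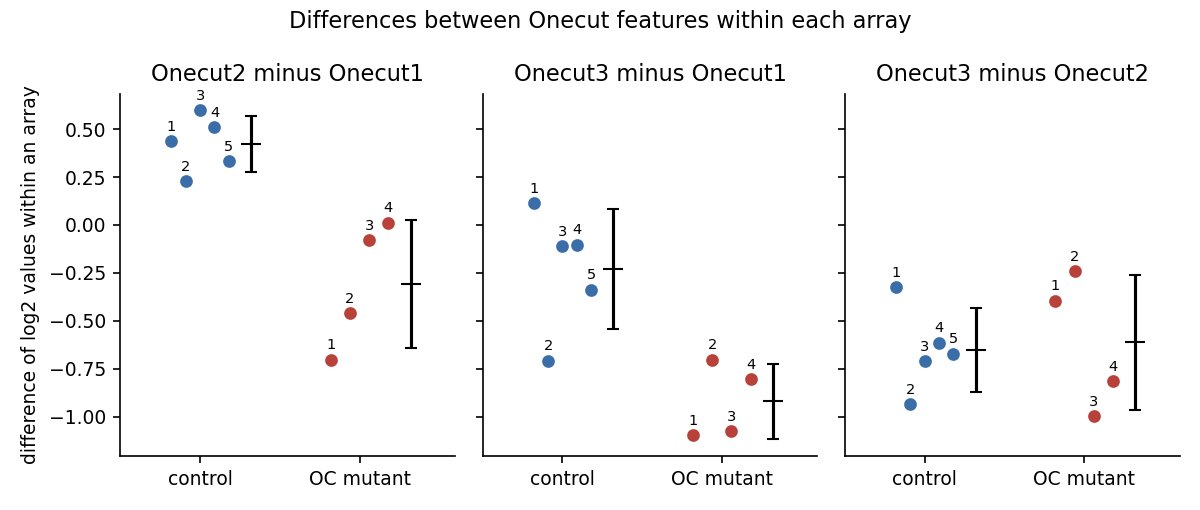
Difference between the log2 values of 2 Onecut features within each array (y axis) for the 3 pairs, by group (x axis). Points are arrays numbered by replicate, with the mean and SD beside them. The groups are apart for Onecut2 minus Onecut1, overlap at control 2 for Onecut3 minus Onecut1 and overlap widely for Onecut3 minus Onecut2.

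The differences of *Onecut2* and *Onecut3* kept their sign and approximate size under each of 19 alternative settings, from −0.95 to −0.73 and from −0.87 to −0.74. Their limma adjusted p did not keep its place. It ran from 0.0265 to 0.875 for *Onecut2* and from 0.0133 to 0.627 for *Onecut3*, with 1 setting, the mean of 18 pan-neuronal genes as a covariate, under 0.05 for both. *Onecut1* ran from −0.18 to −0.00, with limma adjusted p from 0.708 to 0.999. The mean of 3 Y-linked genes was 3.52 and 3.77 on controls 2 and 3 and between 8.10 and 8.32 on the other arrays, so that all 4 mutant arrays but only 3 of the control arrays had Y-linked signal. With this mean as a covariate the log2 fold changes were −0.78 (SE 0.18) for *Onecut2*, −0.86 (SE 0.14) for *Onecut3* and −0.04 (SE 0.16) for *Onecut1* (limma adjusted p = 0.571, 0.348 and 0.979).

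**Figure D3:**
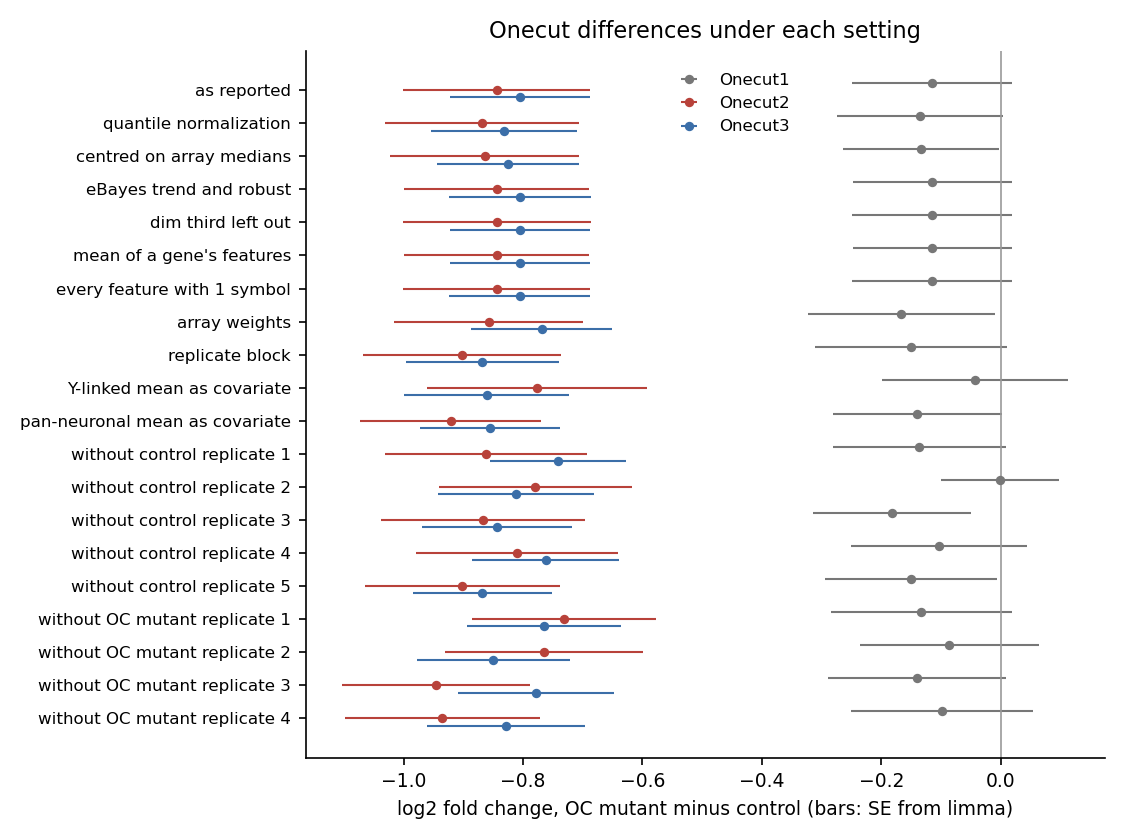
Log2 fold change, OC mutant minus control (x axis), of the 3 Onecut genes as reported and under 19 other settings (y axis), with bars for the SE from limma. Onecut2 and Onecut3 stay between −0.95 and −0.73 throughout, and Onecut1 reaches −0.00 without control replicate 2.

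The neighbours of the Onecut genes were read to see how the 5 nearest measured genes on each side behaved. The 3 genes lie on chromosomes 9, 18 and 10. *Gm16551*, an annotated long noncoding RNA and the nearest measured gene before *Onecut1*, had log2 values of 5.33, 5.49, 5.53, 5.57 and 5.27 on control arrays 1 to 5. On OC mutant arrays 1 to 4 it had 4.66, 4.68, 5.26 and 4.69. All mutant values were under all control values, with mutant 3 next to the lowest control. Its log2 fold change was −0.62 (SE 0.13; limma unadjusted p = 6.55e-04, adjusted p = 0.203; exact two-sided permutation test, p = 0.00794), while that of *Onecut1* itself was −0.11. On the other side, *Fam214a* was at 0.14 (SE 0.19), and over the 10 neighbours of *Onecut1* the median was 0.09, with 7 positive and 3 negative values and *Gm16551* alone at an unadjusted limma p under 0.05.

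Around *Onecut2* the 10 neighbours ran from −0.10 to 0.18 in log2 fold change (median −0.02), with 5 positive, 5 negative and 0 at an unadjusted limma p under 0.05. The nearest were *St8sia3*, a sialyltransferase gene (0.11, SE 0.17), and *Fech*, which encodes the last enzyme of haem synthesis (−0.09, SE 0.15). None of them came near the −0.84 of *Onecut2*. Around *Onecut3* all 10 neighbours were negative, from −0.32 to −0.03 (median −0.17), where 48.7% of all genes were negative. *Mex3d*, an RNA-binding protein gene (−0.32, SE 0.10), and *Mbd3*, which encodes a subunit of the NuRD complex (−0.29, SE 0.09), were lower at an unadjusted limma p under 0.05, both with adjusted p = 0.352. The nearest, *Tcf3*, a basic helix-loop-helix factor gene (−0.15, SE 0.13), and *Atp8b3* (−0.18, SE 0.11), did not pass. The −0.81 of *Onecut3* was below each of these 10 values.

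**Figure D4:**
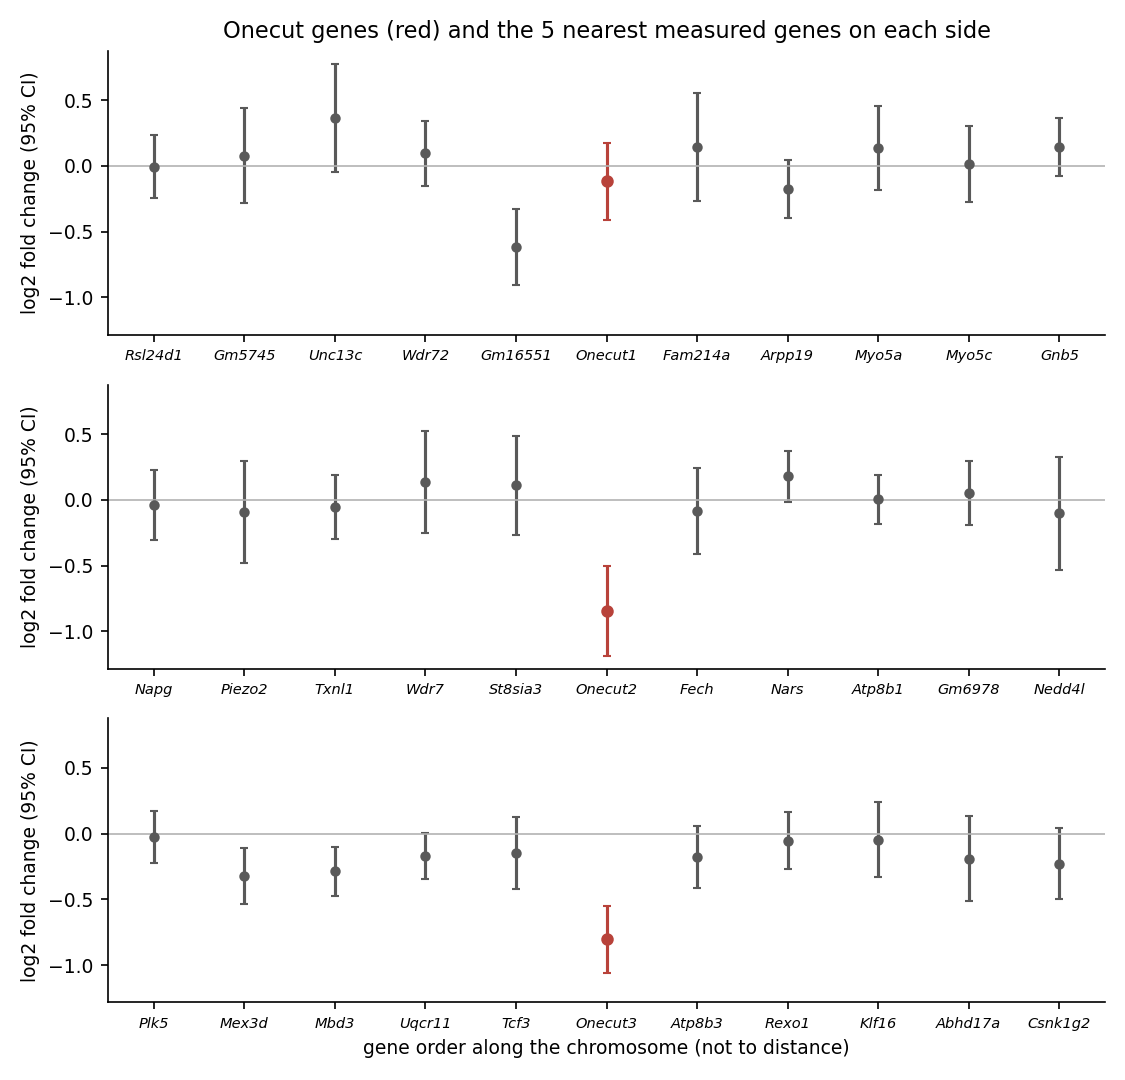
Log2 fold change, OC mutant minus control (y axis), with 95% confidence intervals from limma, of each Onecut gene (red) and of the 5 nearest measured genes on each side in their order along the chromosome (x axis, not to distance). Gm16551 beside Onecut1 is at −0.62, all other neighbours are at −0.32 or above, and the 10 neighbours of Onecut3 are all negative but above it.

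The 3 other CUT homeobox genes described here did not pass any threshold. *Cux1*, *Cux2* and *Satb1* are factors with several CUT or CUT-like domains, and *Cux2* is known from upper-layer cortical and spinal neurons. Their log2 fold changes were 0.06 (SE 0.09), 0.00 (SE 0.15) and 0.15 (SE 0.09), with a median of 0.06 where that of all genes was 0.00 and with limma adjusted p from 0.627 to 0.998. The lowest 95% confidence bound of these genes was −0.33, above the values of *Onecut2* and *Onecut3*.

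Genes known to depend on Onecut factors, in liver and pancreas or in neural and pigment cells, the spinal cord included, were counted next. For comparison with this and every later list, 48.7% of all genes were negative. At a limma unadjusted p under 0.05, 4.93% of all genes were lower and 4.81% higher. Of 8 measured genes of liver and pancreas, 6 were negative and 2 positive (median −0.05), and 1 had a limma unadjusted p under 0.05. It was *Foxa2*, a forkhead factor gene of endoderm and floor plate, which went from 6.82 ± 0.17 (SD, n = 5) in control to 6.45 ± 0.22 (SD, n = 4) in mutant cords (log2 fold change −0.37, SE 0.12; limma adjusted p = 0.393). Of 10 measured genes of neural and pigment cells, 8 were negative and 2 positive (median −0.13), with 2 lower and 1 higher at that p. The lower ones were *Foxd3*, a factor of V1 and dorsal interneurons and neural crest (−0.32, SE 0.11; limma adjusted p = 0.390), and *Calb1*, which encodes the calcium-binding protein calbindin of Renshaw cells (−0.30, SE 0.12; limma adjusted p = 0.482). *Maf*, a leucine zipper factor gene, was at −0.29 (SE 0.17; limma adjusted p = 0.601), and *Isl1*, a gene activated by Onecut factors in motor neurons, was at −0.26 (SE 0.15; limma adjusted p = 0.614). The higher one was *Pou2f2*, a POU factor gene, whose mutant values of 7.31 to 7.76 lay above all control values of 6.50 to 7.18 (log2 fold change 0.66, SE 0.16; limma adjusted p = 0.272; exact two-sided permutation test, p = 0.00794). *Mafa* and *Sox1* were at −0.13 (SE 0.12) and −0.06 (SE 0.14), with limma adjusted p = 0.767 and 0.927. *Pou2f2* was in the list because the study picked it from these same array data, so that its values and p here are no new test of it. *Maf*, *Mafa* and *Sox1* mark cells that the study examined in embryos of this genotype. The directions of these genes are therefore no independent evidence. None of these 18 genes passed the adjusted p.

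Neurons that express Onecut factors were looked at through their markers. Of 10 motor neuron genes, 7 were negative and 2 were lower at an unadjusted limma p under 0.05 (median −0.07): *Prph*, the peripherin gene of motor and sensory neurons (−0.76, SE 0.15; limma adjusted p = 0.170), and *Mnx1*, the gene of the motor neuron factor HB9 (−0.44, SE 0.18; limma adjusted p = 0.477). Of 8 V1 genes, 6 were negative and 2 lower at that p (median −0.08), *Foxd3* and *Calb1* again. Of 11 V2 genes, 8 were negative and 0 passed (median −0.09), and of 12 dorsal interneuron genes, 10 were negative and 1, *Foxd3*, was lower (median −0.20). Of 10 temporal factors of spinal neurons, 5 were negative, 0 were lower and 1, *Pou2f2*, was higher (median 0.07). Genes are shared between these lists. The share of such cells in each cord was not measured, and its part in the *Onecut2* and *Onecut3* difference was not tested.

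Of 18 pan-neuronal genes, 15 were negative and 4 were lower at an unadjusted limma p under 0.05 (median −0.09): *Uchl1* (−0.48), *Stmn3* (−0.45), *Nefl* (−0.37) and *Tubb3* (−0.26), with limma adjusted p from 0.354 to 0.512. The list's mean ran from 9.55 to 10.11 on control and from 9.51 to 10.05 on OC mutant arrays, with no separation of the groups. With this mean as a covariate, *Onecut2* was at −0.92 (SE 0.15; limma adjusted p = 0.0265) and *Onecut3* at −0.86 (SE 0.12; limma adjusted p = 0.0133), both larger than without it, while *Onecut1* was at −0.14 (SE 0.14). Within groups the mean had Pearson's r = −0.465 with *Onecut2* (exact permutation p = 0.252, adjusted p = 0.551) and −0.447 with *Onecut3* (exact permutation p = 0.276, adjusted p = 0.551), the latter 0.0887 without controls 1 and 5. For this last value too, the group means of all arrays were kept. Of 14 neural progenitor genes, 9 were negative and 1, *Nes*, was lower (−0.26, SE 0.10; limma adjusted p = 0.471).

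Lists of genes chosen as markers of sensory ganglia, muscle and mesenchyme, blood, vessels, macrophages and liver were read as well. *Prph* and *Isl1* of the sensory ganglion list are also in the motor neuron list, and *Pou4f1* and *Isl1* in the dorsal interneuron list. They do not mark ganglia alone, and whether the other genes of this list, *Sncg* included, were read from ganglia or from the cord was not tested. The mean of 10 sensory ganglion genes was between 7.17 and 7.46 on control and between 7.04 and 7.16 on OC mutant arrays, 9 of the 10 were negative (median −0.17), and 2 were lower at an unadjusted limma p under 0.05. These were *Prph* (−0.76, given above) and *Sncg*, the gamma-synuclein gene, which also passed the adjusted p (−0.58, SE 0.08; limma adjusted p = 0.0357). The mean of 10 muscle and mesenchyme genes was 5.37 and 5.51 on mutants 1 and 2, where *Onecut2* was lowest, and 6.14 and 6.10 on mutants 3 and 4. On control arrays it was between 5.75 and 6.90, and all 10 of its genes were negative (median −0.28). Of these, 2 were lower at that p: *Tnnt3*, a troponin gene of fast muscle, whose groups did not overlap (−0.36, SE 0.11; limma adjusted p = 0.348), and *Myog*, the myogenin gene (−0.54, SE 0.19; limma adjusted p = 0.400). The mean of 4 erythroid genes was likewise 7.75 and 7.60 on mutants 1 and 2, 8.79 and 8.49 on mutants 3 and 4 and between 8.10 and 8.76 on control arrays, with all 4 genes negative (median −0.18). On mutants 3 and 4, where *Onecut2* was also below all control values, the muscle and mesenchyme mean lay inside its control range. The erythroid mean there lay inside its control range or just above. The sensory ganglion mean on these 2 arrays was 7.04 and 7.16, the latter only just under the lowest control mean of 7.17. The part of these cells in the *Onecut2* and *Onecut3* differences was not tested. Of 6 endothelial genes 4 were negative (median −0.05), and of 6 macrophage genes 4 were negative (median −0.12) and 1, *Fcer1g*, was lower at an unadjusted limma p under 0.05 (−0.35). Of 9 hepatocyte genes 3 were negative and 0 had an unadjusted limma p under 0.05 (median 0.01). *Alb*, *Afp* and *Ahsg*, genes of secreted liver proteins, had control means of 3.58, 3.95 and 3.76 and mutant means of 3.68, 3.84 and 3.94, under the array medians of 5.23 to 5.31. *Apoa1* and *Apoa2*, apolipoprotein genes, were above these medians in both groups, with mutant means of 5.68 and 5.96 and log2 fold changes of 0.07 and −0.05, as was *Ttr*, the transthyretin gene, which ran from 6.04 to 10.54 over the arrays and is also expressed in choroid plexus.

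**Figure D5:**
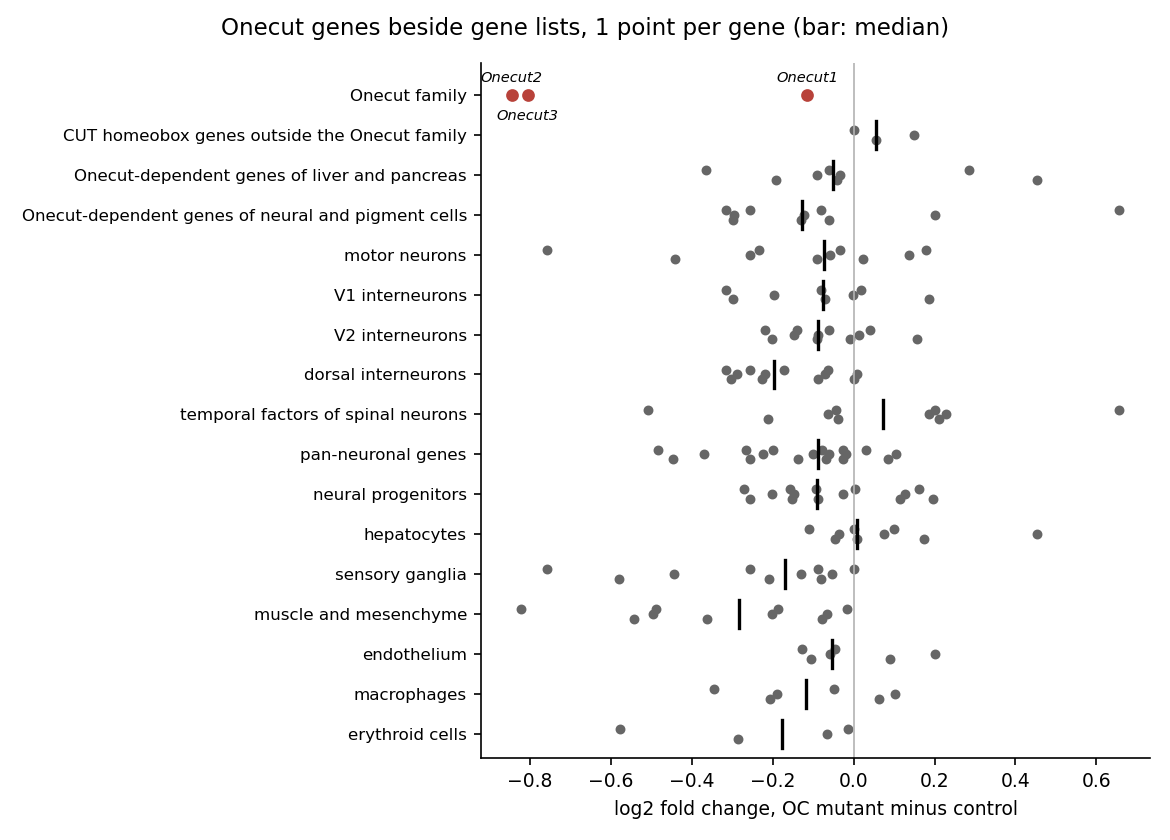
Log2 fold change, OC mutant minus control (x axis), of the 3 Onecut genes (red) and of each measured gene of the gene lists (grey points, y axis), with the median of each list as a bar. Onecut2 (−0.84) and Onecut3 (−0.81) lie to the left of every listed gene but 1, Pax1 (−0.82), which lies between them.

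Finally, the protein-coding genes whose values over the 9 arrays were most like those of a Onecut gene were found by Pearson's r among 17122 genes, as a description. Because the arrays fall into groups, a high r mostly picks genes that differ between them. For *Onecut2* these were *Ppp1ca*, the gene of a catalytic subunit of protein phosphatase 1 (r = 0.954), *B4galnt3* (0.953), *Xpnpep1* (0.953), *Napa* (0.951) and *Endog* (0.939). For *Onecut3* they were *Cyc1*, the cytochrome c1 gene (r = 0.956), *Prcd* (0.954), *Plekho1* (0.948), *Trpa1* (0.942) and its neighbour *Mbd3* (0.941). *Onecut2* and *Onecut3* had r = 0.852 with each other, place 127 in the list of *Onecut2* and 79 in that of *Onecut3*.

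With the group means removed, other genes came first. They were *Guca2b* (r = 0.945), *Cd163l1* (0.943), *Myh7b* (0.926), *Nxnl2* (0.925) and *Stra8* (0.920) for *Onecut1*. For *Onecut2* they were *Usp10* (r = 0.962), *Nol10* (0.960), *Fam107a* (0.951), *Vmn2r10* (0.947) and *Cul1* (0.946). For *Onecut3* they were *Tmem200b* (r = 0.947), *Plaat1* (0.938), *Glis3* (0.937), *St8sia5* (0.924) and *Map3k8* (0.915). No gene was among the first 5 for more than 1 member by this measure, and none was shared by *Onecut2* and *Onecut3* in their values over the arrays. For *Onecut1*, whose groups overlapped, only deviations were ranked.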

How the data were processed

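Spinal cords of 5 control and 4 OC mutant embryos were analysed, grouped and numbered by the sample labels. Each array was taken as 1 embryo, as the series description counts embryos. The authors labelled total RNA with the WT PLUS kit and deposited log2 values for 41345 features per array. Their background correction, summarisation and normalization, and the genome build, are not given in the sources used here. Pearson's r between any pair of arrays lay between 0.973 and 0.988, and 0 pairs were identical.

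The annotation of the platform paired 23521 features with 1 symbol and 1820 with several, and 16004 had no entry. Symbols were updated through RefSeq's gene table of GRCm38.p6, in which 23328 matched, which also gave gene types and neighbours. The brightest feature was kept for 1082 symbols with several, leaving 22180 genes, without a filter. All were fitted with limma 3.58.1 (R 4.3.3) for mutant minus control, with Benjamini-Hochberg adjustment and a threshold of 0.05. Single values were tested with an exact two-sided permutation test over all assignments of arrays to groups in Python 3.11.15. The limma fit was also run on simulated data with means and SDs taken from these arrays, and its outcome is not given here. Promoter and miRNA sequences came from RefSeq, GRCm38.p6.

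The members and lists were chosen with earlier results of these data known. Genes named were the members, the CUT genes, genes among the 4 of smallest limma p of a list and any past the adjusted p, the nearest neighbours and those at an unadjusted p under 0.05, and the 5 genes of highest r. *Apoa2* and *Ttr* were named outside this rule, after their values were seen, and *Mafa* and *Sox1* as markers of cells that the study examined. Features with several symbols or none are not analysed here. Alternatives were quantile normalization, centring on medians, eBayes with trend and robust settings, the dimmest genes left out, other choices of feature, array weights, a block for the replicate number, Y-linked or pan-neuronal means as covariates, and each array left out.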

Additional observations from a re-analysis of the deposited data

How the results depend on the processing

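The direction of the *Onecut2* and *Onecut3* differences was kept under all 19 alternatives and that of *Onecut1* too, though at −0.00 without control 2. Side of the threshold changed for *Onecut2* and *Onecut3* with the pan-neuronal mean as a covariate (−0.92, limma adjusted p = 0.0265, and −0.86, adjusted p = 0.0133). With 1 array left out, *Onecut1* ran from −0.18 to −0.00, *Onecut2* from −0.95 to −0.73 and *Onecut3* from −0.87 to −0.74. The change of *Onecut2* minus *Onecut1* then ran from −0.84 to −0.60, that of *Onecut3* minus *Onecut1* from −0.81 to −0.61 and that of *Onecut3* minus *Onecut2* from −0.08 to 0.17, with the sign turned without control 2 (−0.03), mutant 1 (−0.03) or mutant 2 (−0.085).

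Replicate numbers are shared between the groups, but arrays of the same number deviated apart (r from −0.393 to −0.126, and none correlated best with its own number). No pairing of the embryos by number was detected, though correlations of so few arrays cannot exclude one. With the replicate number as a block, limma gave −0.15 for *Onecut1*, −0.90 for *Onecut2* (adjusted p = 0.875) and −0.87 for *Onecut3* (adjusted p = 0.627). The paired change was −0.75 for *Onecut2* minus *Onecut1* (exact p = 0.125, the smallest that 4 pairs allow), −0.72 for *Onecut3* minus *Onecut1* (exact p = 0.25) and 0.03 for *Onecut3* minus *Onecut2*.

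Over all genes, limma called 5 lower and 0 higher. There were 10 lower and 2 higher with array weights, 1 lower with the replicate block, 2 lower with the Y-linked covariate and 84 lower and 14 higher with the pan-neuronal covariate. With 1 array left out, 2 to 41 were lower and 0 to 3 higher, the most without mutant 3. The cause of these shifts was not tested. Lower and higher genes at an unadjusted p under 0.05 went from 1094 and 1067 to 1428 and 767 with quantile normalization and 1302 and 758 with centring on medians. The number of arrays limits the precision.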

Other observations

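The microRNA miR-9 is known to repress *Onecut2* in other tissues, and the features of its 3 genes were read for that reason, chosen outside the rule for named genes and after the *Onecut2* values were seen. The mature miR-9-5p is the same from *Mir9-1* (chromosome 3), *Mir9-2* (chromosome 13) and *Mir9-3* (chromosome 7), here from RefSeq with the seed, bases 2 to 8, in capitals.
miR-9-5p: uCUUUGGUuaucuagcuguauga
The log2 fold changes, OC mutant minus control, were 0.01 (SE 0.38) for *Mir9-1*, −0.10 (SE 0.25) for *Mir9-2* and 0.14 (SE 0.13) for *Mir9-3*, with limma adjusted p = 0.997, 0.931 and 0.775. The 95% confidence interval of *Mir9-1* ran from −0.82 to 0.83. Whether these features read mature or precursor RNA was not examined.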
